A study of Bos taurus with 14 samples.

Results

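Bovine 16-cell embryos that spent Day 2 to Day 4 in the oviduct of a lactating cow (LACT) were compared with embryos of the same stage kept in culture over the same days (IVC). The comparison took in 6 of the 14 libraries in the series: the 3 libraries labelled LACT on Day 4 and the 3 labelled IVP on Day 4, which are the culture group. All embryos were produced in vitro with sperm of 1 bull. For LACT, 2- to 4-cell embryos were placed on Day 2 into the oviduct on the side of the corpus luteum of milked first-calf Holstein-Friesian cows and were flushed out on Day 4, and the 5 embryos of each pool came from 1 cow. The IVC embryos stayed in synthetic oviduct fluid with serum albumin under low oxygen and were also pooled in groups of 5. A further oviduct group, from cows of the same kind that were dried off at calving and never milked (DRY, 3 libraries on Day 4), shared the fit and serves here for reference levels, as do 5 pools of 4-cell embryos taken on Day 2. The oviduct therefore differed from culture in the whole environment, maternal state included, and every in vivo embryo had also been transferred and flushed. The age of the cows in years was not given in the sources used here.

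In cattle the embryonic genome is switched on in earnest between the 8- and 16-cell stages, so the interval in oviduct or dish covered embryonic genome activation (EGA), when maternal transcripts are cleared and the first large set of embryonic transcripts is made. Oxidative phosphorylation is the mitochondrial pathway that passes electrons through 4 membrane complexes and uses the resulting proton gradient in the ATP synthase. Translation initiation factors eIF2 and eIF3 bring the initiator tRNA and the mRNA to the small ribosomal subunit. The mTOR kinase works in a pair of complexes, and the first of them is recruited to the lysosome by Rag GTPases when amino acids are plentiful and then promotes protein synthesis.

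Levels are given as CPM, a library's counts on a gene scaled to a total of 1000000, after correction for composition by the trimmed mean of M-values (TMM). They are not corrected for gene length, so they compare libraries and not genes. A CPM value is a share of the RNA sequenced, and a change in the RNA content of the whole embryo cannot be told apart from a change of single genes. The 6 libraries of LACT and IVC held between 22711367 and 29953316 counts on genes, and 3 counts corresponded to between 0.0904 and 0.132 CPM.

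In each Day-4 group 1 library sat almost exactly at the average of its 2 companions. For genes with 20 to 500 expected counts, the median distance of LACT 3 from the mean of LACT 1 and LACT 2 was 0.101 standard deviations of counting error, and that of IVC 1 from IVC 2 and IVC 3 was 0.201. Counting error in the library itself would give 0.674, and that of the mean it is set against would add to this. The same measure was 6.66 for LACT 1, 7.32 for LACT 2, 6.18 for IVC 2 and 6.21 for IVC 3, and DRY 3 was the like library of its group at 0.440. LACT 3 and IVC 1 thus lay nearer to the mean of the others than separate samplings of the same RNA would, which leaves 2 libraries per group that vary independently. The fit across all 9 Day-4 libraries took these libraries as replicates. It was therefore set beside a fit without LACT 3, IVC 1 and DRY 3, and a gene is said here to have risen or fallen only if it passed a false discovery rate (FDR) under 0.05 in the same direction in both fits. Values are given for each library, in the order LACT 1, 2 and 3 and IVC 1, 2 and 3, in place of a mean and standard deviation over 3 libraries.

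**Figure D1:**
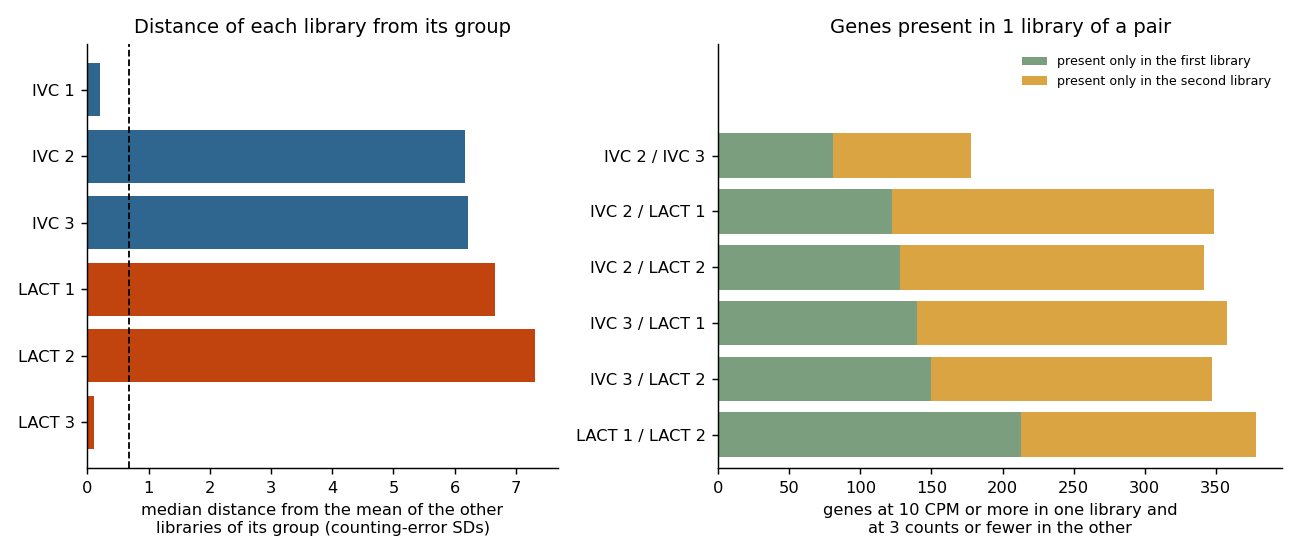
Left, the median distance of each LACT and IVC library from the average of its companions in the group, in standard deviations of counting error. The dashed line is at the 0.674 that counting error in the library itself would give. LACT 3 and IVC 1 are at 0.101 and 0.201 and the other 4 libraries above 6. Right, for each pair of the 4 libraries that vary independently, the number of genes at 10 CPM or more in one library and at 3 counts or fewer in the other, coloured by the library that holds the gene; the LACT pair has 378 such genes and the IVC pair 178.

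Much of the transcriptome was shared between oviduct and culture. At least 1 CPM in every library was reached by 9385 genes in LACT and by 9291 in IVC, and 8287 genes reached it in both, which is 88.3% of the LACT genes and 89.2% of the IVC genes. The median log2 fold change (FC) of LACT over IVC was -0.03 over the 12069 genes tested. Its median size without regard to sign was 0.68, and 36.4% of genes differed by more than 1 on the log2 scale.

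In the fit on 9 libraries (edgeR's quasi-likelihood test, Benjamini-Hochberg adjustment), 1018 of 12069 genes (8.43%) had an FDR under 0.05. Of these, 475 were higher in LACT (3.94% of genes tested) and 543 were lower (4.5%). Without the libraries at the mean, 52 of 12133 genes passed, 32 higher and 20 lower in LACT, and 790 genes (6.51%) had an unadjusted p under 0.05. Both fits called 50 genes (0.42% of the 11909 genes tested in both), of which 31 rose and 19 fell in LACT.

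The genes called in both fits were almost all present in one environment and at the detection limit in the other. All 31 genes that rose had 3 counts or fewer in every IVC library, and 18 of the 19 that fell had 3 counts or fewer in every LACT library. Their mean level in the group that held them ran from 16.5 to 937 CPM for the genes that rose, with a median of 85.9 CPM, and from 9.29 to 454 CPM for the genes that fell, with a median of 100.0 CPM. Taken against 3 counts in the shallowest library of the other group, these levels were at least 124-fold to at least 7081-fold higher in LACT, and at least 76.6-fold to at least 3749-fold lower in LACT. Many of the genes varied within the group that held them. Between the 2 independent libraries of that group, 9 of the 31 genes that rose and 9 of the 19 that fell differed by more than 4-fold. The median ratio between these libraries was 2.17 for the genes that rose and 2.92 for the genes that fell. The remaining gene that fell was read in every library. Its level was 0.485, 1.02 and 0.676 CPM in LACT against 100.4, 94.4 and 105 CPM in IVC, with 14.3, 5.28 and 8.54 CPM in DRY, and its log2 FC was -7.08 (SE 0.50, FDR = 8.9e-05) in the fit on 9 libraries and -7.03 (SE 0.88, FDR = 0.0035) without the libraries at the mean by edgeR's quasi-likelihood test. It is singled out here after its values were seen.

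**Figure D2:**
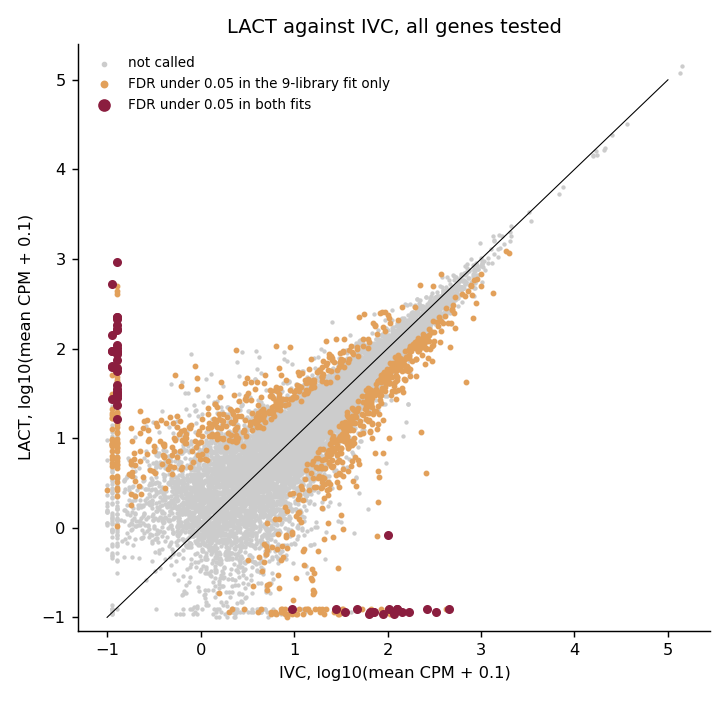
Mean level of each gene tested in IVC (horizontal) and LACT (vertical), as log10 of CPM plus 0.1, each point a gene, with the line of equal levels. Dark red points passed an FDR under 0.05 in both fits (50 genes) and lie along the axes, where one group is at the detection limit, apart from 1 gene near 100 CPM in IVC, while the orange points, called in the fit on 9 libraries only, run along both sides of the diagonal and also along the axes.

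The deposited table names genes by Ensembl identifier, and an identifier could be paired with a symbol for few genes. The leading genes are therefore given by identifier. They were picked by lowest FDR and passed the filter only through the group that held them, so their FDR values are a description. The independent libraries of that group differed by less for each of them than the median ratios given above, so they do not show the spread of the 50 genes. ENSBTAG00000009614 stood at 584, 487 and 501 CPM in LACT and at 0, 1 and 0 counts in IVC. All LACT libraries were high and no IVC library was above the detection limit. It was at least 3957-fold higher in LACT, with FDR = 1.0e-06 on 9 libraries and FDR = 1.8e-05 without the libraries at the mean (edgeR). In DRY it had 1, 1 and 0 counts, so the embryos from the other oviduct group were also without it, and on Day 2 its highest level was 3.25 CPM.

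ENSBTAG00000008223 showed the same arrangement at a lower level, with 254, 213 and 216 CPM in LACT, 0, 1 and 1 counts in IVC and 1, 1 and 0 counts in DRY. It was at least 1721-fold higher in LACT than in IVC (FDR = 2.0e-06 and FDR = 2.3e-05 in the edgeR fits with and without the libraries at the mean).

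Of the genes that fell, ENSBTAG00000013848 led with 457, 436 and 470 CPM in IVC and 1, 1 and 0 counts in LACT. The IVC libraries were close to one another. It was at least 3749-fold lower in LACT (FDR = 1.0e-06 and FDR = 1.9e-05 in the 2 edgeR fits), and it was at 1, 0 and 0 counts in DRY and at no more than 2.07 CPM on Day 2. ENSBTAG00000053425 had 125, 120 and 134 CPM in IVC, 1, 1 and 0 counts in LACT and 0, 1 and 0 counts in DRY, and was at least 1043-fold lower in LACT (FDR = 9.6e-06 and FDR = 2.0e-04 in the edgeR fits). Both were read in culture and neither was above the detection limit in either oviduct group. With the Day-2 libraries added to the fit and the libraries at the mean left out, ENSBTAG00000009614, ENSBTAG00000008223 and ENSBTAG00000013848 no longer passed (edgeR FDR = 0.083, FDR = 0.062 and FDR = 0.079), while ENSBTAG00000053425 did (edgeR FDR = 0.023).

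The DRY libraries separated the genes that rose into those read in both oviduct groups and those read in LACT. Of the 31, 12 had at least 1 CPM in every DRY library, 18 had 3 counts or fewer in every DRY library and 1 lay between. In the fit on 9 libraries, where 1165 of 12069 genes (9.65%) differed between DRY and LACT, 24 of the 31 genes were lower in DRY than in LACT and 1 was higher, and 19 of the 31 also differed between DRY and LACT without the libraries at the mean. Of the 19 genes that fell, 15 had 3 counts or fewer in every DRY library, 3 had at least 1 CPM in each and 1 lay between, and 3 differed between DRY and LACT in the fit on 9 libraries. Because LACT was used to choose these genes, their DRY to LACT contrast is a description.

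Few of the 50 genes were found on Day 2. A mean of at least 1 CPM over the 5 Day-2 libraries, before the major wave of EGA, was reached by 11 of the 31 genes that rose and by 3 of the 19 that fell, together 28.0% of them, against 75.3% of the 12069 genes tested. These shares compare unlike sets. Of the 50 genes, 49 had 3 counts or fewer in every library of LACT or of IVC. Of the 12069 tested, 10045 had more than 3 counts in every library of both. Whether the share on Day 2 differs from that of other genes missing from a group was not tested. The highest Day-2 mean was 22.5 CPM for a gene that rose and 10.7 CPM for a gene that fell.

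Presence in one group and absence in the other also occurred within groups. Under a rule without a test, 120 genes had at least 1 CPM in every LACT library and 3 counts or fewer in every IVC library, and 77 genes had the reverse. At a minimum of 10 CPM there were 46 and 20 such genes. Between single libraries, LACT 1 and LACT 2 differed at 378 genes that were at 10 CPM or more in one and at 3 counts or fewer in the other, and IVC 2 and IVC 3 differed at 178. The 4 pairs of 1 LACT and 1 IVC library differed at 342 to 358 genes, so each pair across the groups held fewer such genes than the LACT pair and more than the IVC pair. Among genes at 5 CPM or more in both libraries of a pair, the median absolute log2 ratio was 0.54 within LACT, 0.58 within IVC and 0.55 to 0.64 across the groups.

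A gene missing from a whole group passed the filter only through the groups that held it, so calls among such genes follow in part from that split and are given as a description. Of the 475 genes tested with 3 counts or fewer in every library of LACT or of IVC, 195 were called in the fit on 9 libraries and 49 in both fits. Of the 10045 genes with more than 3 counts in every library of both groups, 760 (7.57%) were called in the fit on 9 libraries and 1 in both. Over all 27607 genes of the table, LACT 1 had 12884 genes at 0 counts, 1192 at 1 count and 341 at 2 counts, and LACT 2 had 13240, 994 and 245. IVC 2 had 12469, 1340 and 410, and IVC 3 had 12143, 1334 and 416. The part of this in the calls was not tested.

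Identifiers and symbols could be paired for 26 genes of oxidative phosphorylation, translation initiation and the mTOR pathway, of which 25 are described. The study picked them on these libraries for differences among the 3 Day-4 groups, so the direction in which a list differs between LACT and IVC follows from the choice and is not independent evidence. Of the 25, 4 passed in the fit on 9 libraries (16.0%, against 8.43% of all genes tested) and 0 passed without the libraries at the mean (edgeR). In that smaller fit 3 had an unadjusted p under 0.05, and DESeq2's Wald test on the same libraries called 1, LAMTOR4. None of the 25 can thus be said to have risen or fallen by the rule used here, and their values follow as levels.

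**Figure D3:**
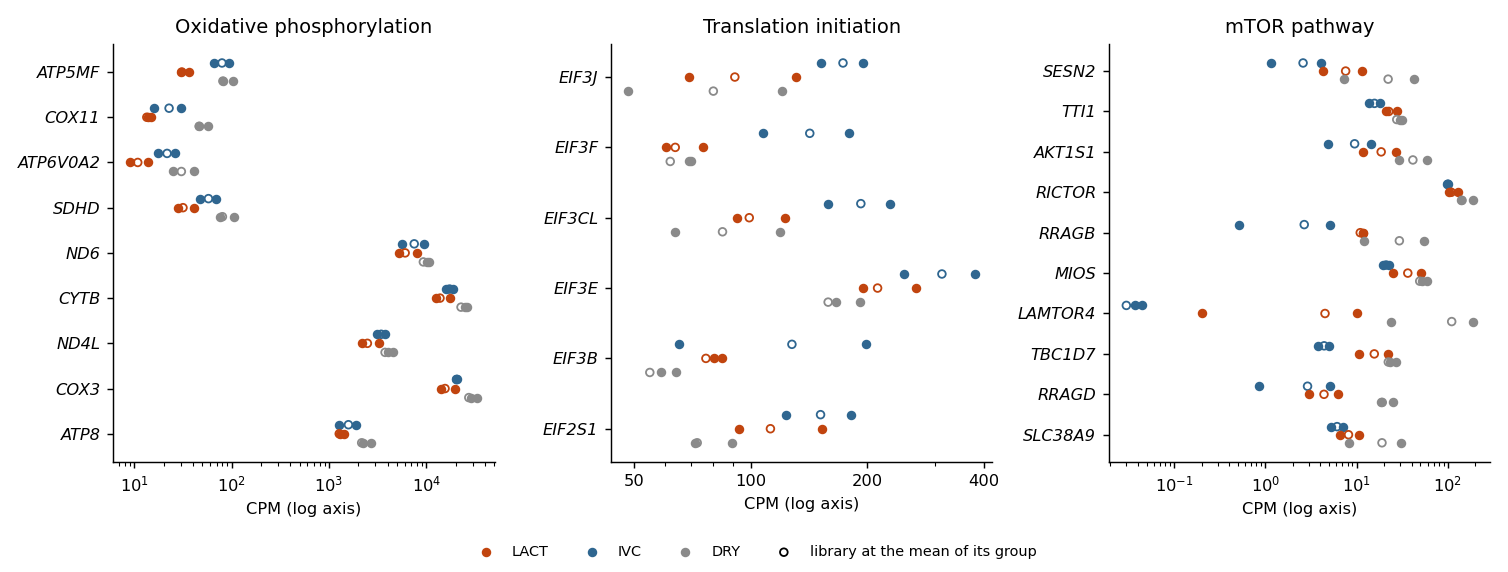
Level of each of the 25 genes in the 9 Day-4 libraries, in CPM on a log axis, in LACT (orange), IVC (blue) and DRY (grey), with open circles for the library that lay at the mean of its group and values under 0.03 CPM drawn at 0.03. ATP5MF and EIF3F are lower in all LACT than in all IVC libraries, TBC1D7 is higher in all, and LAMTOR4 runs from 0.20 to 10.04 CPM in LACT with the IVC libraries at the left edge.

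The 9 genes of oxidative phosphorylation had a median log2 FC of -0.39, against -0.03 for all genes tested, and a range from -1.30 to -0.24. Their LACT and IVC libraries did not overlap for 5 of the 9, where 35.7% of all genes tested did not overlap. One passed in the fit on 9 libraries, where 8.43% of all genes tested passed. ATP5MF, a subunit of the membrane part of the ATP synthase, had 36.6, 29.8 and 30.7 CPM in LACT and 79.4, 93.9 and 65.7 CPM in IVC. Every LACT library was below every IVC library. Its log2 FC was -1.30 (SE 0.21, 95% interval -1.77 to -0.83, edgeR FDR = 0.0088) on 9 libraries and -1.27 (95% interval -2.31 to -0.23, edgeR FDR = 0.67) without the libraries at the mean.

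The other genes of this list encoded in the nucleus were also lower in every LACT than in every IVC library, without passing. SDHD, which anchors succinate dehydrogenase (complex II) in the inner membrane, had 40.6, 28.0 and 31.6 CPM in LACT and 57.7, 69.1 and 47.0 CPM in IVC (log2 FC -0.79, 95% interval -1.34 to -0.25, edgeR FDR = 0.076). COX11, a copper chaperone needed to assemble complex IV, had 13.8, 14.9 and 13.4 CPM in LACT and 22.7, 30.4 and 15.7 CPM in IVC (log2 FC -0.71, edgeR FDR = 0.16). The LACT libraries of COX11 were close to each other, and IVC 3 was near them. ATP6V0A2 belongs to the proton pump of endosomes and the Golgi and not to the respiratory chain, although the annotation term includes it. It had 9.09, 13.8 and 10.8 CPM in LACT and 21.7, 26.3 and 17.3 CPM in IVC (log2 FC -0.95, edgeR FDR = 0.10).

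The 5 genes encoded in mitochondrial DNA were among the most abundant in the table and together took 3.92% to 4.69% of all counts in LACT and 4.70% to 4.90% in IVC. COX3, a core subunit of complex IV, had 19594, 14167 and 15562 CPM in LACT and 20505, 20023 and 20891 CPM in IVC. Here LACT 1 came near the IVC libraries, and the log2 FC was -0.32 (95% interval -0.64 to 0.01, edgeR FDR = 0.20). CYTB of complex III had 17438, 12544 and 13818 CPM in LACT and 17337, 18587 and 16106 CPM in IVC, so the groups overlapped (log2 FC -0.25, edgeR FDR = 0.31). They overlapped as well for ND4L and ND6 of complex I and for ATP8 of the ATP synthase, with log2 FC of -0.39, -0.24 and -0.25. ND4L and ATP8 share bases with neighbouring mitochondrial genes and ND6 lies on the other strand within the same transcribed circle, so their counts depend on how overlapping and opposite-strand reads were assigned, which was not stated.

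For all 9 genes every DRY library was above every LACT library. The study placed them in a cluster picked on these libraries for high levels in DRY and low levels in LACT. That order and the tests below therefore follow from the choice and are given as a description. The test of DRY against LACT passed for 8 of the 9 in the fit on 9 libraries, all except ND6, where 9.65% of all genes tested passed, and the median log2 FC of DRY over LACT was 0.85, against -0.03 for all genes. ATP5MF had 102, 81.6 and 81.1 CPM in DRY, above every LACT library (log2 FC of DRY over LACT 1.45, edgeR FDR = 0.0044). COX3 had 33296, 28457 and 27315 CPM in DRY (log2 FC of DRY over LACT 0.85, edgeR FDR = 0.0085). Without the libraries at the mean 0 of the 9 passed by edgeR, where the FDR was 0.44 for ATP5MF and 0.43 for COX3.

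The 6 genes of translation initiation had a median log2 FC of -0.77, against -0.03 for all genes tested, and a range from -1.10 to -0.35. Of them 1 passed on 9 libraries, where 8.43% of all genes tested passed. LACT and IVC libraries did not overlap for 3 of the 6, against 35.7% of all genes tested. EIF3F, a subunit of the eIF3 scaffold, had 60.4, 75.4 and 63.9 CPM in LACT and 142, 179 and 108 CPM in IVC. No LACT library reached the lowest IVC library. Its log2 FC was -1.10 (SE 0.21, 95% interval -1.58 to -0.63, edgeR FDR = 0.017) on 9 libraries and -1.08 (95% interval -2.04 to -0.11, edgeR FDR = 0.72) without the libraries at the mean. DRY stood at the LACT level, with 70.3, 69.2 and 62.1 CPM.

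EIF3CL, a copy of the gene for the eIF3 subunit that contacts the small ribosomal subunit, had 123, 92.1 and 99.2 CPM in LACT and 193, 229 and 158 CPM in IVC (log2 FC -0.88, 95% interval -1.45 to -0.32, edgeR FDR = 0.063). Reads of such a copy can be shared with the parent gene, so its level is uncertain. EIF3J, a loosely bound eIF3 subunit, had 131, 69.3 and 91.1 CPM in LACT and 173, 195 and 152 CPM in IVC (log2 FC -0.84, edgeR FDR = 0.15). As a fold, LACT 1 and LACT 2 of EIF3J differed by slightly more than the groups did.

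The groups overlapped for the other members. EIF3E, a further eIF3 subunit, had 267, 195 and 213 CPM in LACT and 312, 380 and 248 CPM in IVC, where LACT 1 was above IVC 3 (log2 FC -0.48, 95% interval -0.92 to -0.04, edgeR FDR = 0.16). EIF3B, the eIF3 subunit that holds its scanning module together, had 84.2, 80.5 and 76.7 CPM in LACT and 128, 199 and 65.5 CPM in IVC, where IVC 3 was the lowest of the 6 libraries (log2 FC -0.70, edgeR FDR = 0.22). EIF2S1, the alpha subunit of eIF2, whose phosphorylation slows initiation under stress, had 153, 93.2 and 113 CPM in LACT and 152, 182 and 123 CPM in IVC (log2 FC -0.35, edgeR FDR = 0.37).

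The 10 genes of the mTOR pathway described here had a median log2 FC of 0.92 and a range from 0.18 to 7.32, and 7 of the 10 did not overlap between LACT and IVC (35.7% of all genes tested). On 9 libraries 2 of the 10 passed, against 8.43% of all genes tested. LAMTOR4, a subunit of the Ragulator complex that holds the Rag GTPases on the lysosome, had 0.202, 10.04 and 4.51 CPM in LACT (5, 333 and 120 counts) and 0, 1 and 1 counts in IVC. LACT 1 was close to the detection limit while LACT 2 was not. The mean LACT level was at least 37.1-fold higher than 3 counts in the shallowest IVC library, and the gene passed on 9 libraries (edgeR FDR = 0.030) but not without the libraries at the mean (edgeR FDR = 0.67). DRY had 23.7, 189 and 110 CPM.

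RRAGB, one of the Rag GTPases, had 11.8, 11.8 and 11.0 CPM in LACT and 2.67, 0.519 and 5.12 CPM in IVC (log2 FC 2.06, 95% interval 0.33 to 3.79, edgeR FDR = 0.13). The LACT libraries were nearly equal, and the spread lay in IVC. RRAGB was at 3 counts or fewer in every Day-2 library. Its partner RRAGD had 2.99, 6.24 and 4.39 CPM in LACT and 2.90, 0.852 and 5.12 CPM in IVC, so the groups overlapped (log2 FC 0.62, edgeR FDR = 0.58). SLC38A9, a lysosomal transporter that senses arginine, overlapped as well, with 6.59, 10.6 and 8.15 CPM in LACT and 6.11, 7.15 and 5.21 CPM in IVC (log2 FC 0.45, edgeR FDR = 0.61).

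MIOS, a component of the GATOR2 complex upstream of the Rag GTPases, had 25.1, 51.0 and 36.4 CPM in LACT and 21.1, 19.5 and 22.5 CPM in IVC (log2 FC 0.83, 95% interval 0.20 to 1.47, edgeR FDR = 0.099). SESN2, a stress-induced leucine sensor that inhibits GATOR2, had 4.24, 11.5 and 7.59 CPM in LACT and 2.59, 1.15 and 4.10 CPM in IVC (log2 FC 1.57, edgeR FDR = 0.20). LACT 1 of SESN2 was barely above IVC 3. On Day 2 SESN2 had between 43.9 and 119 CPM, far above both groups.

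TBC1D7, a subunit of the TSC complex that restrains mTOR, had the lowest FDR of this list, with 10.5, 22.2 and 15.6 CPM in LACT and 4.41, 3.82 and 4.98 CPM in IVC. All LACT libraries were above all IVC libraries. Its log2 FC was 1.87 (SE 0.37, 95% interval 1.04 to 2.698, edgeR FDR = 0.019) on 9 libraries and 1.89 (95% interval -0.01 to 3.79, edgeR FDR = 0.76) without the libraries at the mean. AKT1S1, an inhibitory subunit of the first mTOR complex, had 11.8, 27.0 and 18.6 CPM in LACT and 9.51, 4.89 and 14.3 CPM in IVC, with overlap (log2 FC 1.0, edgeR FDR = 0.22).

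RICTOR, the defining subunit of the second mTOR complex, had 102, 129 and 109 CPM in LACT and 100.2, 101.1 and 98.9 CPM in IVC, with a log2 FC of 0.18 (95% interval -0.21 to 0.57, edgeR FDR = 0.55). TTI1, a co-chaperone of mTOR and related kinases, had 27.8, 21.0 and 22.5 CPM in LACT and 15.7, 17.8 and 13.7 CPM in IVC (log2 FC 0.59, edgeR FDR = 0.18). TTI1 did not overlap between the groups.

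**Figure D4:**
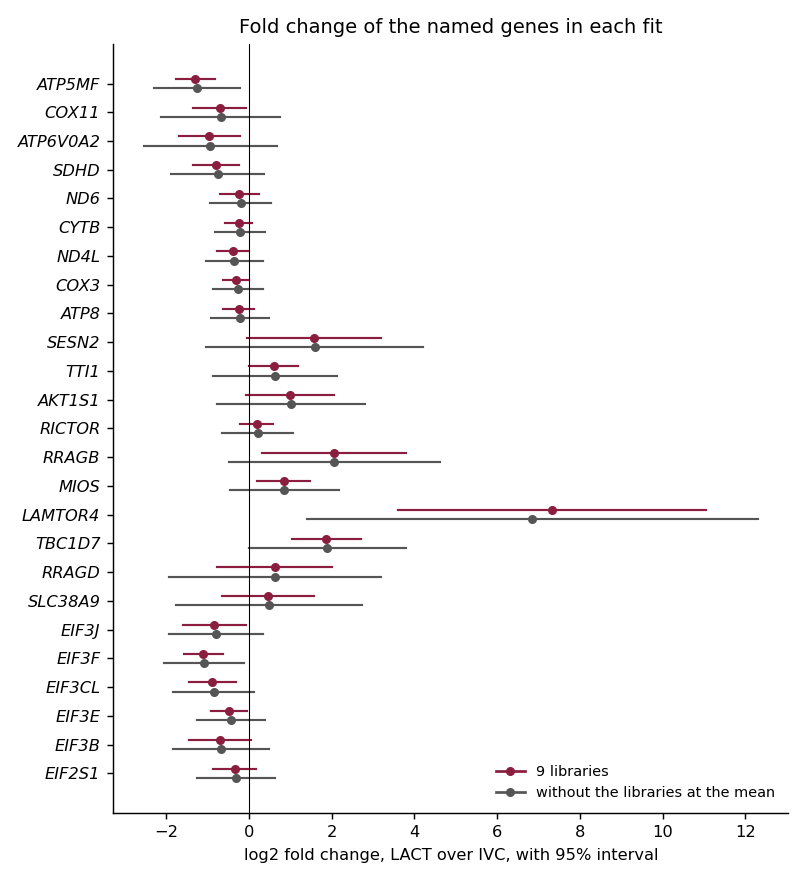
Log2 FC of LACT over IVC with its 95% interval for the 25 genes, in the fit on 9 libraries (red) and without the libraries at the mean (grey). The estimates hardly move between the fits, the grey intervals are wider, and those of ATP5MF, LAMTOR4 and EIF3F do not reach 0. The libraries left out lay at the mean of those kept, so the estimates could move little, and their stability is no check.

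Beyond these genes, members of 18 functional lists could be followed by identifier. The study drew the lists from clusters of genes (A, B, D, E and F) chosen for their order among the Day-4 groups of these same libraries, so again their direction follows from the choice. Over the 152 genes in the lists, 17 were higher and 47 lower in LACT with an FDR under 0.05 on 9 libraries (3.94% and 4.5% of all genes tested), and 0 passed without the libraries at the mean by edgeR, where 48 had an unadjusted p under 0.05 and DESeq2's Wald test called 10.

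Lists higher in LACT came from Cluster A, whose 40 genes had a median log2 FC of 2.12 and a median level of 17.3 CPM in LACT and 3.13 CPM in IVC. Their terms were methylation, nucleosome, centriole and ciliary basal body. Of 15 methylation genes 4 were higher in LACT on 9 libraries, with a list median of 2.14, where 3.94% of all genes tested were called higher in LACT. For the 8 nucleosome genes it was 2 with a median of 2.73, for the 11 centriole genes 5 with a median of 2.37, and for the 13 basal body genes 7 with a median of 2.11. The centriole and basal body lists share members, and 3 of the methylation genes are also in the nucleosome list. Cluster B held 11 genes, the 10 mTOR genes described above and 1 more. Its list of positive regulation of TOR signalling held 7 genes, of which 6 are among those mTOR genes, and 1, LAMTOR4, was higher on 9 libraries (list median 0.62).

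The lists lower in LACT by the most came from Cluster F, whose 50 genes had a median log2 FC of -1.58 and a median level of 19.4 CPM in LACT against 64.4 CPM in IVC. All but one of its lists name compartments of membrane traffic, in which cargo is sorted between the Golgi, endosomes and cell surface. Of all genes tested, 4.5% were called lower in LACT. On 9 libraries 12 of 16 endosome genes were lower in LACT (list median -1.67), as were 8 of 10 genes of the trans-Golgi network (-1.89), 9 of 12 of the basolateral plasma membrane (-1.75), 6 of 7 of the extracellular exosome (-1.37), 3 of 5 of the membrane between endoplasmic reticulum and Golgi (-1.62) and 3 of 3 of TFIIK, the kinase module of the general transcription factor TFIIH (-1.32). In DRY the 50 genes had a median level of 32.3 CPM, between the other groups.

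Cluster E held lysosome, tricarboxylic acid cycle and the oxidative phosphorylation genes described above. For the counts and medians below, 4.5% of all genes tested were called lower in LACT on 9 libraries, and their median log2 FC was -0.03. Of 9 lysosome genes 2 were lower in LACT on 9 libraries (list median -1.21), and of the 5 genes of the tricarboxylic acid cycle, which supplies electrons to the respiratory chain, 2 were lower (list median -1.18). The 22 genes of the cluster had a median level of 21.2 CPM in LACT, 40.4 CPM in IVC and 62.9 CPM in DRY. Cluster D had a lower median level in both oviduct groups than in culture. Over its 29 genes it was 192 CPM in LACT, 172 CPM in DRY and 290.2 CPM in IVC. Its preinitiation complex list is the 6 initiation factors above. Of its 14 ribosome genes 2 were lower in LACT on 9 libraries (list median -0.42), and of its 9 genes of fatty acid metabolism none passed on 9 libraries by edgeR or by DESeq2's Wald test, with 1 by the likelihood ratio test and a list median of -0.51. Without the libraries at the mean, 2 of these 9 genes were higher in LACT. The fatty acid list lay lowest in DRY, with a median log2 FC of -3.13 for DRY over IVC and -2.75 for DRY over LACT.

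**Figure D5:**
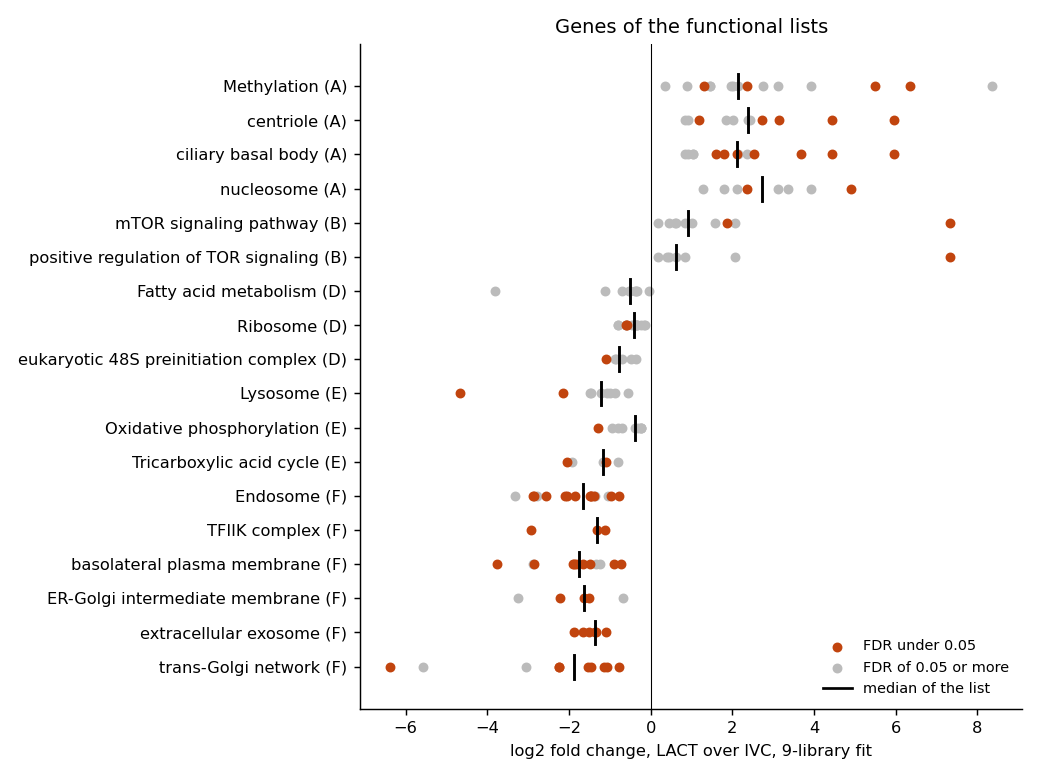
Log2 FC of LACT over IVC in the fit on 9 libraries for the genes of the 18 lists, each point a gene (orange with an FDR under 0.05) and each bar the median of its list, with the cluster in parentheses. Lists of Clusters A and B lie to the right of 0 and those of Clusters D, E and F to the left, which is how the clusters were chosen, and 12 of the 16 endosome genes are orange.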

How the data were processed

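The authors trimmed 100 bp single-end reads with Trimmomatic, aligned them to bosTau 9 with STAR 2.7.0b and counted them per gene with featureCounts (Subread 2.0.3). The annotation release and strand setting were not given in the sources used here. The deposited table holds raw counts of 27607 Ensembl genes. Samples were grouped by their titles, and no source says that replicate numbers pair cows with cultures. Genes that reached 1 CPM in 3 or more of the 9 Day-4 libraries were fitted with edgeR 4.0.16 (R 4.3.3), with TMM scaling and the robust quasi-likelihood test, after the script was tested on simulated data. The fit without the libraries at the mean asked for 1 CPM in at least 2. DESeq2 1.42.0, the authors' kind of test (edgeR likelihood ratios, observation weights) and other filters were alternatives. Intervals cover 95%. Day-2 levels come from TMM over all 14 libraries. Named genes were those that the paper pairs with symbols, and, per direction, the 2 genes of lowest FDR called in both fits whose groups do not overlap. From that list 1 gene is not reported here. The members and lists were chosen with earlier results of these data known. Lists by symbol, cell type markers among them, could not be matched to identifiers and were not analysed here, so neither the 16-cell stage nor the absence of oviduct or cumulus cells was checked. With 2 to 3 pools per group, p-values rest on the spread between pools, each from 1 cow in LACT and from culture in IVC. In the fit on 9 libraries this spread is understated and the intervals are too narrow, because LACT 3, IVC 1 and DRY 3 lay at the mean of their groups.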

Additional observations from a re-analysis of the deposited data

Results flagged for a closer look

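The 2 genes that led the rise in LACT also differed between the oviduct groups by the test of DRY against LACT, and so differed in their contrast with culture. Both were chosen for high levels in LACT and passed the filter only through the LACT libraries, so these values are a description. The log2 FC of DRY over LACT was -14.37 for ENSBTAG00000009614 (edgeR FDR = 1.2e-06 on 9 libraries and FDR = 1.7e-05 without the libraries at the mean) and -13.17 for ENSBTAG00000008223 (edgeR FDR = 2.5e-06 and FDR = 2.7e-05). The DRY libraries are at 0 or 1 count for both, so the fitted values depend on the prior count and are not a bound.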

How the results depend on the processing

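The count of genes called between LACT and IVC depended most on the libraries at the mean. Against 1018 genes called (475 higher and 543 lower in LACT) on 9 libraries, and 1165 between DRY and LACT, the counts were 52 (32 and 20) and 81 without the libraries at the mean, 456 (284 and 172) and 556 on all 14 libraries, 26 (14 and 12) and 45 on the 14 without those at the mean, 2345 (1235 and 1110) and 2577 with DESeq2's Wald test, and 1793 (870 and 923) and 1924 with the likelihood ratio test with observation weights. At an FDR under 0.01, 202 genes passed. Size factors, no filter, 10 counts in every library, LACT and IVC alone and leaving out the 10 genes of highest counts kept each count within 1.5 times. Leaving out 1 library gave 120 to 1513 genes called, 60 to 782 higher, 58 to 731 lower and 252 to 1276 between DRY and LACT. For LACT against IVC the lowest counts were without IVC 1 (120) and without LACT 3 (126), and counts also moved by over 1.5 times without IVC 2 (409), LACT 2 (531) and DRY 3 (461), for genes higher in LACT also without DRY 1 (782), for genes lower also without LACT 1 (339), and between DRY and LACT without LACT 3 (252), DRY 3 (278) and IVC 1 (537).

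Alternatives added after seeing the data, all without the libraries at the mean, called 51 genes with size factors, 337 with DESeq2's Wald test, 435 with no filter, 2 with 10 counts in every library and 72 on LACT and IVC alone. The 50 genes called in both fits became 24 when the second fit was that on 14 libraries without those at the mean, 305 with DESeq2's Wald test as the second fit, 216 with no filter and 2 with 10 counts in every library, a filter that removes genes absent from a group. The 197 genes at the detection limit in one group became 66 at a minimum of 10 CPM.

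With the replicate number as a block, 489 genes were called (226 higher and 263 lower) and 562 between DRY and LACT. The deviations of LACT and IVC libraries of the same number had correlations of -0.05, -0.02 and 0.03 across 8608 genes. The highest correlation was 0.19, between LACT 3 and IVC 1. IVC 1 and LACT 3 lay at the mean of their groups, so pairs that hold them could hardly show pairing. Of the same-number pairs this leaves LACT 2 with IVC 2 (-0.02), so whether the numbers pair libraries cannot be told from these values. The log2 FC of ND6 ran from -0.354 to 0.018 with 1 library left out, turning above 0 without IVC 2 (0.018) and without LACT 2 (0.010), and no other named gene changed direction in these alternatives. Of the 560 values of named genes under alternatives, 515 kept direction and side of the threshold, 31 lost the call and 12 gained it, and the cause was not tested. Most of these genes were not called on 9 libraries and could not lose a call, so the 515 is no measure of stability. Among those called, LAMTOR4 lost the call in 10 alternatives and kept it in 8. TBC1D7 lost it in 7 and kept it in 13, EIF3F in 6 and 14, and ATP5MF in 5 and 15. The other losses were in genes named by identifier. Depth limits genes near 3 counts, and 2 independent pools per group limit the rest.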
